A study of Homo sapiens with 12 samples.

Results

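Cholesterol and fatty acid synthesis was followed through 30 genes in HEL cells, an established human erythroleukemia line that grows in suspension and is used as a model of acute myeloid leukemia. The members were taken by gene name from a table of 26481 genes: 17 enzymes of sterol synthesis (6 of the mevalonate and isoprenoid steps, 11 from squalene onward), 9 genes of fatty acid synthesis and use, and 4 regulators or carriers of sterol sensing. All 30 members were found, and all 30 passed the filter on low counts. RNA sequencing was made from 12 samples in 4 groups. NT cells (n = 2) were cultured with DMSO in place of drug. Doxo cells (n = 3) had regrown after 1.8 µM doxorubicin, Doxo+Cyta cells (n = 3) after 1.8 µM doxorubicin with 6 µM cytarabine, and Doxo+Cyta+DAC cells (n = 4) after the same pair with 0.1 µM decitabine, a hypomethylating agent. Treatment lasted 72 h in every drug group, dead cells were removed on a density gradient, and live cells were collected about 30 days later, once they had regrown to the seeded number. All groups came from 1 line carrying DNA barcodes, so regrowth from few surviving clones and the drugs themselves cannot be told apart, and no group received decitabine alone. Neither lipids nor proteins were measured, and in bulk RNA fewer cells of a type and less RNA per cell cannot be told apart.

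Cholesterol and fatty acids are both built from acetyl-CoA. The sterol branch runs through mevalonate and isoprenoids to squalene, which is closed into lanosterol and trimmed to cholesterol. The fatty acid branch makes malonyl-CoA, from which palmitate is built, lengthened and desaturated. When membrane sterol is low, the transcription factors SREBP2 (from SREBF2) and SREBP1 (from SREBF1) are released from the endoplasmic reticulum and switch on both branches, SREBP2 mainly the sterol genes and SREBP1 mainly the fatty acid genes. INSIG1 holds them back and is itself one of their targets. Sterol released from serum lipoproteins in the medium lowers the activity of the whole set in cultured cells.

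Total counts were 12763582 to 19106235 fragments per library. All 14 erythroid, megakaryocytic and blast markers checked for HEL cells were expressed, with a summed level between 8508 and 12693 CPM (fragments of a gene per library total, scaled alike in all libraries). Of these 14, 2 were called higher and 4 lower in Doxo+Cyta+DAC than in NT, beside 24.9% and 23.7% of all tested genes. Against Doxo 1 was called higher and 6 lower, beside 29.1% and 30.4%. Against Doxo+Cyta 2 were called higher and 8 lower, beside 29.8% and 30.5%. The part of these markers in the results was not tested. Of the markers of other cells, MS4A1 (B cells) and ADIPOQ (adipocytes) were at 0 in every library, and CD3D (T cells) and ALB (hepatocytes) reached at most 0.0667 and 0.245 CPM. Each list also held 1 gene that reached 1 CPM. CD2 (T cells) lay between 19.9 and 55.7 CPM, and CD79A (B cells) reached 6.00, APOA1 (hepatocytes) 3.27, PLIN1 (adipocytes) 1.73 and COL1A1 (fibroblasts) 1.27 CPM. CD79A and PLIN1 were called lower in Doxo+Cyta+DAC than in NT (log2 fold change -1.71 and -1.68) and than in both chemotherapy relapses, and their part in the results was not tested. Libraries of 1 group differed by more than sampling noise, with a chi-square per degree of freedom of 2.97 to 46.0 between pairs, and Doxo replicate 4 and Doxo+Cyta replicate 20 stood apart from the other libraries of their groups across all genes.

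The members of each branch moved in both directions, and how far the sterol branch as a whole was lower turned on 1 library, Doxo+Cyta+DAC replicate 31. In Doxo+Cyta+DAC cells the central fatty acid genes ACLY, ACACA, FASN and ELOVL6 were higher than in both chemotherapy relapses, whereas the acetyl-CoA synthetase ACSS2 and the lipid phosphatase LPIN1 were lower. In the sterol branch FDFT1 was lower than in every other group, with no overlap. MVK was called lower and PMVK higher against every other group. MVK overlapped Doxo, PMVK overlapped Doxo+Cyta, and some of these calls were lost with 1 library left out. SREBF2 and STARD4 were called lower as well, and both overlapped Doxo, STARD4 also Doxo+Cyta. Of the 30 members, 7 were called higher and 7 lower against Doxo, at an adjusted p under 0.05 in edgeR's quasi-likelihood test, beside a background of 59.5% of 14164 tested genes called in either direction (29.1% higher and 30.4% lower). Against Doxo+Cyta 5 were called higher and 8 lower, beside a background of 60.3% (29.8% higher and 30.5% lower). Against NT 3 were called higher and 9 lower, beside a background of 48.7% (24.9% higher and 23.7% lower). With all libraries, the share of members called was thus near or under the background in all 3 comparisons. Members whose groups did not overlap numbered 7 higher and 4 lower against Doxo, 5 and 6 against Doxo+Cyta, and 4 and 9 against NT. Over all tested genes these shares were 29.7% and 30.2%, 29.0% and 28.2%, and 34.2% and 32.9%. The 3 comparisons use the same 4 Doxo+Cyta+DAC libraries and are not independent of each other. The lower calls depended on replicate 31. Without it 17 of 30 members were called lower against Doxo, 17 of 30 against Doxo+Cyta and 16 of 30 against NT. In the same fits 28.7%, 29.1% and 22.7% of all tested genes were called lower. Replicate 31 was singled out by the high levels of these same members, so leaving it out lowers them by construction. The counts without it are therefore a description and no test.

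ACLY, which splits citrate into cytosolic acetyl-CoA and so feeds both branches, was measured at 405 and 431 CPM in NT cells, at 317, 269 and 269 CPM in Doxo, at 294, 259 and 285 CPM in Doxo+Cyta, and at 464, 612, 512 and 486 CPM in Doxo+Cyta+DAC. The last group lay wholly above the other 3. The log2 fold change was 0.86 ± 0.11 (SE) against Doxo (edgeR adjusted p = 1.75e-05) and 0.89 ± 0.11 against Doxo+Cyta (edgeR adjusted p = 1.13e-05). Against NT it was 0.31 ± 0.12 and missed the threshold by little (edgeR adjusted p = 0.0507). The gene lies on the minus strand of chromosome 17 at 41866917 to 41930542 (GRCh38, GENCODE 44). ACACA makes malonyl-CoA from acetyl-CoA in the committed step. It was at 104 and 112 CPM in NT, 74.8, 72.1 and 72.6 in Doxo, 80.4, 60.2 and 69.4 in Doxo+Cyta, and 108, 130, 119 and 97.0 in Doxo+Cyta+DAC, which spanned the NT values and did not overlap either chemotherapy relapse. ACACA differed by 0.63 ± 0.12 (log2) from Doxo and by 0.70 ± 0.12 from Doxo+Cyta. Exons of ACACA lie on 2 contigs of the assembly, so fragments aligned to both copies may be missing from its counts.

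FASN, the synthase that builds palmitate, was at 564 and 624 CPM in NT, 497, 373 and 362 in Doxo, 421, 442 and 372 in Doxo+Cyta, and 655, 955, 828 and 598 in Doxo+Cyta+DAC. All 4 of these libraries were above the 6 chemotherapy relapses, and they overlapped NT. The log2 fold changes were 0.89 ± 0.16 and 0.88 ± 0.16 against Doxo and Doxo+Cyta. ELOVL6 lengthens palmitate to stearate and had the largest rise of any member. It lies on chromosome 4 at 110045846 to 110199199. Its level was 20.2 and 26.7 CPM in NT, 18.1, 14.8 and 13.2 in Doxo, 17.2, 15.8 and 16.1 in Doxo+Cyta, and 45.8, 44.7, 39.6 and 46.6 in Doxo+Cyta+DAC. ELOVL6 rose by 1.52 ± 0.14 (log2) against Doxo, 1.43 ± 0.14 against Doxo+Cyta and 0.91 ± 0.16 against NT (edgeR adjusted p = 1.48e-06, 1.62e-06 and 0.000373). It was the only one of these 4 genes that was called against NT.

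The other fatty acid genes did not follow. ACSS2, on chromosome 20 at 34872146 to 34927962, makes acetyl-CoA from acetate, an alternative to the ACLY route. It was at 71.9 and 65.5 CPM in NT, 46.6, 54.0 and 50.6 in Doxo, 73.0, 71.9 and 59.7 in Doxo+Cyta, and 25.7, 27.2, 26.4 and 32.5 in Doxo+Cyta+DAC, below every other library. The log2 fold change was -0.85 ± 0.12 against Doxo, -1.29 ± 0.12 against Doxo+Cyta and -1.30 ± 0.13 against NT. Per kilobase of exon, ACLY stood at 10.9 to 16.4 times the level of ACSS2 in the 4 Doxo+Cyta+DAC libraries. The ratio was 4.12 to 4.81 in NT, 3.64 to 4.97 in Doxo and 2.63 to 3.49 in Doxo+Cyta. The pair was chosen after its values were seen, and the ratio is given without a test. LPIN1, a phosphatidate phosphatase on the way to triglycerides that also acts as a nuclear coregulator, was at 70.0 CPM in both NT libraries. It was at 52.8, 79.3 and 84.2 in Doxo, 85.3, 48.4 and 79.3 in Doxo+Cyta, and 33.3, 41.1, 41.7 and 36.0 in Doxo+Cyta+DAC. LPIN1 fell by 0.92, 0.90 and 0.88 on the log2 scale against Doxo, Doxo+Cyta and NT (SE 0.19, 0.19 and 0.21).

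The desaturases were less changed. FADS1, which places a double bond in long polyunsaturated chains, was lower in Doxo+Cyta+DAC (53.8, 65.8, 72.2 and 73.6 CPM) than in Doxo (93.7, 100.2 and 99.6 CPM), with a log2 fold change of -0.56 ± 0.13 (edgeR adjusted p = 0.00181). It was at 77.3 and 79.6 CPM in NT and at 85.2, 63.0 and 82.7 CPM in Doxo+Cyta, and neither comparison passed the threshold. SCD, which desaturates stearate to oleate, ranged from 174 to 404 CPM over all libraries, and FADS2 from 184 to 334 CPM. Neither was called in any comparison in the main edgeR fit of all 12 samples (edgeR adjusted p = 0.0610 and 0.0518 against NT). DESeq2 called both lower than NT, as did edgeR with no filter, with at least 10 counts in every sample, and with only the groups compared. The edgeR log2 fold changes against NT were -0.59 ± 0.24 and -0.44 ± 0.17. Without Doxo+Cyta+DAC replicate 31 both were called lower against all 3 groups, with -0.84 ± 0.19 for SCD and -0.62 ± 0.13 for FADS2 against NT. FADS1 and FADS2 lie head to head on opposite strands of chromosome 11 and share 855 bases at 61816203 to 61817057 (GRCh38). The authors counted without strand and left out fragments over both genes, so part of each gene is not seen. Their neighbour FADS3, looked at after its values were seen, was at 22.3 to 37.7 CPM in the other 3 groups and at 4.23 to 9.03 CPM in Doxo+Cyta+DAC.

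In the mevalonate steps the kinases moved in opposite directions. MVK phosphorylates mevalonate first. It was at 32.8 and 31.6 CPM in NT, 17.1, 21.9 and 21.8 in Doxo, 25.4, 33.7 and 25.4 in Doxo+Cyta, and 7.84, 22.2, 10.8 and 8.47 in Doxo+Cyta+DAC. The log2 fold change of MVK was -1.19 ± 0.28 against Doxo+Cyta and -1.39 ± 0.31 against NT (edgeR adjusted p = 0.00214 and 0.00212). Against Doxo it was -0.72 ± 0.28 (edgeR adjusted p = 0.0404), a call that was lost without Doxo replicate 5 or 6, either NT library, or Doxo+Cyta+DAC replicate 30, 32 or 33, and when only these groups entered the fit. PMVK, the next kinase, was at 24.2 and 24.4 CPM in NT, 30.2, 20.7 and 19.1 in Doxo, 20.0, 39.5 and 23.6 in Doxo+Cyta, and 45.2, 39.9, 44.2 and 38.5 in Doxo+Cyta+DAC. It rose by 0.85 ± 0.21 (log2) against Doxo, 0.60 ± 0.21 against Doxo+Cyta and 0.79 ± 0.24 against NT. The call against Doxo+Cyta was lost without Doxo+Cyta replicate 19 or 22 or Doxo+Cyta+DAC replicate 30, and that against NT without either NT library.

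MVD decarboxylates the product of PMVK to isopentenyl pyrophosphate. Its levels were 55.5 and 50.2 CPM in NT, 29.4, 41.4 and 40.1 in Doxo, 55.9, 61.2 and 48.6 in Doxo+Cyta, and 24.3, 41.7, 31.3 and 22.8 in Doxo+Cyta+DAC. MVD was lower than in Doxo+Cyta by a log2 fold change of -0.88 ± 0.19 and than in NT by -0.81 ± 0.21, the second call being lost without NT replicate 1. It overlapped Doxo and was not called there. FDPS, which joins isoprenoid units to farnesyl pyrophosphate, was at 160 and 143 CPM in NT, 120, 121 and 118 in Doxo, 142, 177 and 129 in Doxo+Cyta, and 134, 187, 144 and 142 in Doxo+Cyta+DAC. Its rise of 0.34 ± 0.13 (log2) against Doxo was lost without any 1 Doxo library and without Doxo+Cyta+DAC replicate 31. HMGCS1, which makes HMG-CoA at the head of the pathway, and IDI1, the isomerase of the isoprenoid unit, were not called in any comparison with all libraries. IDI2, the neighbouring isomerase gene, was looked at after its values were seen. It was at 2.08 and 2.11 CPM in NT and at 8.05 to 12.3 CPM in Doxo+Cyta+DAC (log2 fold change 2.31 ± 0.41).

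FDFT1 joins farnesyl units to squalene and so commits carbon to sterols. It was at 385 and 336 CPM in NT, 288, 444 and 462 in Doxo, 484, 447 and 468 in Doxo+Cyta, and 160, 238, 182 and 172 in Doxo+Cyta+DAC. Every library of the last group was below every other library. FDFT1 fell by 1.08, 1.31 and 0.94 on the log2 scale against Doxo, Doxo+Cyta and NT (SE 0.16, 0.16 and 0.18, edgeR adjusted p = 5.94e-05, 1.01e-05 and 0.000709), and no left-out library ended any of these calls. Among the later enzymes, DHCR7, which reduces 7-dehydrocholesterol to cholesterol, was at 92.3 and 89.9 CPM in NT. It was at 32.1, 53.6 and 50.1 in Doxo, 67.0, 65.0 and 57.1 in Doxo+Cyta, and 19.4, 82.6, 39.1 and 26.4 in Doxo+Cyta+DAC. All 10 treated libraries were below both NT libraries. With all libraries, DHCR7 was called for Doxo+Cyta+DAC against NT alone (-1.12 ± 0.39, edgeR adjusted p = 0.0277). The same difference was -1.01 ± 0.42 for Doxo (edgeR adjusted p = 0.129) and -0.53 ± 0.42 for Doxo+Cyta (edgeR adjusted p = 0.504). Doxo against NT was called with no filter, with only the groups compared, or without Doxo+Cyta+DAC replicate 31. Without Doxo+Cyta+DAC replicate 31, DHCR7 was also called lower against Doxo (-0.67 ± 0.23, edgeR adjusted p = 0.0238) and Doxo+Cyta (-1.15 ± 0.23, edgeR adjusted p = 0.000912). The call against NT was lost with DESeq2 and without either NT library or Doxo+Cyta+DAC replicate 30, 32 or 33.

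NSDHL and HSD17B7 act together in removing the methyl groups at carbon 4 of the sterol ring. NSDHL was at 18.7 and 15.8 CPM in NT, 25.6, 25.0 and 25.7 in Doxo, 13.3, 31.4 and 22.2 in Doxo+Cyta, and 24.8, 24.8, 30.4 and 32.1 in Doxo+Cyta+DAC. It rose by 0.70 ± 0.25 against NT (edgeR adjusted p = 0.0321), which was lost without either NT library or Doxo+Cyta+DAC replicate 32 or 33. HSD17B7 had the fewest reads of the set. It was at 11.7 and 8.82 CPM in NT, 5.58, 10.1 and 7.13 in Doxo, 12.1, 9.14 and 10.7 in Doxo+Cyta, and 3.68, 9.15, 6.61 and 3.88 in Doxo+Cyta+DAC. The groups overlapped. HSD17B7 was called lower against Doxo+Cyta (-0.87 ± 0.29) and NT (-0.81 ± 0.32, edgeR adjusted p = 0.0482), and the second call was lost without any 1 of 7 libraries: either NT library, Doxo replicate 6, Doxo+Cyta replicate 22, or Doxo+Cyta+DAC replicate 30, 32 or 33. The first was lost without Doxo+Cyta replicate 19 or Doxo+Cyta+DAC replicate 30 or 33. Reads of HSD17B7 can be shared with its near copy HSD17B7P2, which makes both counts uncertain. SQLE, LSS, CYP51A1, TM7SF2, MSMO1, EBP and SC5D were not called in any comparison of the main edgeR fit. With no filter, SQLE and CYP51A1 were called lower in Doxo+Cyta+DAC than in NT, and CYP51A1 lower than in Doxo.

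SREBF2 was at 396 and 417 CPM in NT, 315, 430 and 430 in Doxo, 428, 356 and 424 in Doxo+Cyta, and 209, 337, 251 and 234 in Doxo+Cyta+DAC. It was lower by log2 fold changes of -0.60 ± 0.15, -0.64 ± 0.15 and -0.66 ± 0.17 against Doxo, Doxo+Cyta and NT (edgeR adjusted p = 0.00383, 0.00236 and 0.00605). The groups did not overlap in the last 2 comparisons, and the call against NT was lost without NT replicate 2. SREBF1 was at 169 and 162 CPM in NT, 131, 93.8 and 99.4 in Doxo, 156, 195 and 128 in Doxo+Cyta, and 160, 252, 186 and 169 in Doxo+Cyta+DAC. It was called only against Doxo, where it was higher by 0.83 ± 0.18 (edgeR adjusted p = 0.00124). Per kilobase of exon, SREBF1 stood at 0.836 to 0.886 of the level of SREBF2 in Doxo+Cyta+DAC, at 0.450 to 0.494 in NT, at 0.252 to 0.481 in Doxo and at 0.348 to 0.635 in Doxo+Cyta. This pair too was chosen after its values were seen and carries no test.

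STARD4, which carries cholesterol between membranes, was at 90.8 and 103 CPM in NT, 70.6, 131 and 126 in Doxo, 112, 60.5 and 113 in Doxo+Cyta, and 22.4, 75.2, 44.8 and 38.1 in Doxo+Cyta+DAC. It fell by 1.28, 1.08 and 1.10 on the log2 scale against Doxo, Doxo+Cyta and NT (SE 0.33, 0.33 and 0.36), and the last call was lost without either NT library or Doxo+Cyta+DAC replicate 33. INSIG1, the sterol-sensing brake on SREBP release, was at 108 and 104 CPM in NT and at 28.2, 133, 70.0 and 56.7 in Doxo+Cyta+DAC. The difference from NT was -0.55 ± 0.39 (edgeR adjusted p = 0.255).

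Most of the sterol branch shared with INSIG1 that replicate 31 ranked highest in Doxo+Cyta+DAC, though mostly by a smaller margin. The median SD of log2 CPM over the sterol enzymes was 0.29 there, 0.27 in Doxo, 0.23 in Doxo+Cyta and 0.10 in NT. Replicate 31 was the highest of the 4 libraries for 14 of 17 sterol enzymes, 4 of 4 regulators and 5 of 9 fatty acid genes, against 27.6% of all tested genes. Replicate 30 was the lowest for 11 of 17, 4 of 4 and 6 of 9, against 23.9%. MSMO1, a methyl sterol oxidase, was at 68.4 CPM in replicate 31 and at 18.6, 26.5 and 23.3 in replicates 30, 32 and 33, a ratio of 3.00 to the mean of those 3. HMGCS1 was at 211 CPM against 60.6, 106 and 82.6, a ratio of 2.54. The ratio was 2.91 for DHCR7, 2.58 for INSIG1, 2.46 for MVK and 2.22 for CYP51A1, the lanosterol demethylase. PMVK and NSDHL, the 2 sterol enzymes called higher in this group against NT, were not higher there, with ratios of 0.936 and 0.851. In the fatty acid branch SCD (1.79) and FADS2 (1.54) stood higher in replicate 31, and FASN (1.38), ACLY (1.26), ACACA (1.21) and LPIN1 (1.11) by less. ACSS2 (0.965), FADS1 (0.989) and ELOVL6 (1.02) were level. The median log2 difference of replicate 31 from the other 3 was 0.54 over the sterol enzymes, 0.86 over the 4 regulators and 0.28 over the fatty acid genes, beside 0.00 over all tested genes. The last median was 0.00 to 0.01 for each of the 4 libraries, so it cannot show whether replicate 31 differed across all genes. The chi-square per degree of freedom was 13.9 to 15.2 for pairs with replicate 31 and 10.5 to 11.3 for pairs without it. No label sets replicate 31 apart, and its total count of 14956918 lay inside the range of the others.

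Without replicate 31, 9 of 17 sterol enzymes were called lower against Doxo, 10 of 17 against Doxo+Cyta and 9 of 17 against NT. The background without that library was 28.7%, 29.1% and 22.7% of 14118 tested genes called lower. Because the library was singled out by the levels of these same genes, the counts without it are no test. HMGCS1, SQLE (squalene epoxidase), CYP51A1, MSMO1 and INSIG1 were then lower in all 3 comparisons. The log2 fold change of HMGCS1 against NT went from -0.71 ± 0.39 to -1.17 ± 0.30 (edgeR adjusted p = 0.00623) and that of INSIG1 from -0.55 ± 0.39 to -1.03 ± 0.29 (edgeR adjusted p = 0.0106). MSMO1 against Doxo went from -0.72 ± 0.38 to -1.30 ± 0.27. The number of sterol genes called lower in the group therefore turned on whether that 1 library was counted. A library also stood apart within Doxo, in the other direction. Doxo replicate 4 was the lowest of its 3 libraries for 12 of 17 sterol enzymes, beside 43.5% of all tested genes, with HMGCS1 at 101 CPM against 214 and 207. Without Doxo replicate 4, 11 members were called lower in Doxo+Cyta+DAC than in Doxo in place of 7. That library too was singled out here by these same genes, so leaving it out raises Doxo by construction. The share of all tested genes called lower in that fit was not counted, and the count of 11 is no test.

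Set side by side with all libraries, the branches differed little in their medians. The median log2 fold change in Doxo+Cyta+DAC against NT was -0.24 for the 17 sterol enzymes and -0.24 for the 9 fatty acid genes, beside 0.02 for all tested genes, and the difference between the branches was 0.00. It was 0.08 against Doxo and -0.14 against Doxo+Cyta, within the SD of 0.18 that this difference had between libraries of 1 group. Without Doxo+Cyta+DAC replicate 31 the medians were -0.54 for the sterol enzymes and -0.24 for the fatty acid genes against NT, a difference of -0.31. Against Doxo+Cyta they were -0.48 and -0.21. The SD of 0.18 describes single libraries, replicate 31 included, and is no measure of error for these group differences. Against Doxo they were -0.43 and -0.45. The medians hide calls in both directions among the fatty acid genes. Against Doxo 4 of 9 were called higher and 3 of 9 lower, beside 29.1% and 30.4% of all tested genes. Against Doxo+Cyta 4 and 2 of 9 were called, beside 29.8% and 30.5%. The lower shares were thus near or under the background. Among the 17 sterol enzymes 2 were called higher and 2 lower against Doxo, and 1 and 4 against Doxo+Cyta, beside the same backgrounds. Against NT 2 and 5 of 17 were called, beside 24.9% and 23.7% of all tested genes.

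In the relapses after chemotherapy alone, the main edgeR fit called members of the fatty acid branch only. Doxo cells had 0 members called higher and 3 lower than NT, beside a background of 10.7% (6.06% higher and 4.63% lower). These were ACACA (-0.56), ACLY (-0.55) and ELOVL6 (-0.61), and all 3 calls were lost without either NT library or without Doxo replicate 5 or 6. The lower calls numbered more without Doxo+Cyta replicate 20 (6, with SREBF1, FASN and ACSS2) and without Doxo+Cyta+DAC replicate 31 (6, with MVK, DHCR7 and SREBF1). They numbered 5 without Doxo replicate 4, and 4 without Doxo+Cyta replicate 22 or Doxo+Cyta+DAC replicate 33. All groups share 1 estimate of the spread, and its part in these changes was not tested. Doxo+Cyta cells had 2 members called lower than NT, ACACA (-0.62) and ACLY (-0.58), beside a background of 1.46% (0.911% higher and 0.551% lower), and both calls were lost when only these groups entered the fit. They were also lost in 10 of the 12 fits that left out 1 library, all but those without Doxo replicate 4 or Doxo+Cyta+DAC replicate 31. In these comparisons with NT, the main edgeR fit called 0 of 17 sterol enzymes, which depended on the setting. For Doxo, DHCR7 was called lower with no filter. With only the groups compared, DHCR7 and MVK were called lower and NSDHL higher, and the call of ELOVL6 was lost. In the main fit DHCR7 (-1.01 ± 0.42) and MVK (-0.67 ± 0.33) fell further in Doxo than the 3 called genes, with larger SEs. At an unadjusted p under 0.05 over all 30 members, the main edgeR fit gave 1 higher (NSDHL) and 9 lower in Doxo, and 0 higher and 4 lower in Doxo+Cyta. The share of all tested genes at that threshold was not counted, so these numbers are not a result about the members. The sterol median was higher than the fatty acid median by 0.34 in Doxo and 0.22 in Doxo+Cyta against NT. Between Doxo+Cyta and Doxo cells 0 members were called by edgeR, beside a background of 3.4% (1.07% higher and 2.32% lower), and 1 by DESeq2 (ACSS2, higher in Doxo+Cyta). At an unadjusted p under 0.05, edgeR gave 4 higher (MVD, FDPS, SREBF1 and ACSS2) and 1 lower (FADS1), again with no share over all tested genes counted.

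Promoter sequences are shown for 5 members that moved in different ways: SREBF2, MSMO1 and SCD, which were high in replicate 31, and PMVK and ACLY, which were called higher in Doxo+Cyta+DAC than in both chemotherapy relapses. Promoters of 27 members were matched by symbol in RefSeq (GRCh38.p14), and FDFT1, SQLE and FASN were not matched. Each window was searched from 250 bases before to 50 bases after the start on both strands. The 250 bases before the start are printed 5′ to 3′ on the strand of the gene, with capitals for CCAAT (or its complement ATTGG), the NF-Y box, and for TCACCCCAC, a form of the sterol regulatory element. The windows lie at chr22:41832855-41833104 (+ strand), chr4:165327419-165327668 (+ strand), chr10:100346983-100347232 (+ strand), chr1:154936720-154936969 (- strand) and chr17:41919023-41919272 (- strand). In GENCODE 44 that of SREBF2 lies in an exon of the antisense gene SREBF2-AS1, that of MSMO1 has 2 bases in its own first exon, and those of SCD, PMVK and ACLY hold no exon.
SREBF2: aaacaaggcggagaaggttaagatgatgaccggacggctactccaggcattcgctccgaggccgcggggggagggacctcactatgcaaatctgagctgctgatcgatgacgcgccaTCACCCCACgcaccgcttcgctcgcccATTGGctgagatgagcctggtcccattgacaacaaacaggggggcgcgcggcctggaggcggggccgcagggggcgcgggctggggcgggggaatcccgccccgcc
MSMO1: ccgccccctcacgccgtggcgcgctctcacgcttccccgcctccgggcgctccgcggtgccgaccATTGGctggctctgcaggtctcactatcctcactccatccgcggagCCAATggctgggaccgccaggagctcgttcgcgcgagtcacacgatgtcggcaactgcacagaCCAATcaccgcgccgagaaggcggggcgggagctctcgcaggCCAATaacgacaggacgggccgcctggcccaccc
SCD: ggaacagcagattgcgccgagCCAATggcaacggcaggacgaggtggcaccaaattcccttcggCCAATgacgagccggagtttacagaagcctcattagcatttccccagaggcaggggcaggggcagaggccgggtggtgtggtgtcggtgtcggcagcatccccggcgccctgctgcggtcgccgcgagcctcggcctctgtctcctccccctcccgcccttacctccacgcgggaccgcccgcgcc
PMVK: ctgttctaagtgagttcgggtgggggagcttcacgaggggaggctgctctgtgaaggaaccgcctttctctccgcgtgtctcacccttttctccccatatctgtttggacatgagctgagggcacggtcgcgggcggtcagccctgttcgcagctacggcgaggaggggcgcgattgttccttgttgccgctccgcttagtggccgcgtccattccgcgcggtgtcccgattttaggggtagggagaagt
ACLY: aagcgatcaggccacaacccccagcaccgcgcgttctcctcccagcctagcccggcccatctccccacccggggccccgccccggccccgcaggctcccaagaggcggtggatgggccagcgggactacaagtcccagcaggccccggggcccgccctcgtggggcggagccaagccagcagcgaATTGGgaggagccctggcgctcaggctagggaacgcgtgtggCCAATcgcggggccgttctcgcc

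TCACCCCAC was found in 1 of the 27 windows, that of SREBF2, at -133 to -125 from the start, and in 0.425% of 27305 promoters. The looser TCACNCCAC, which includes it, was in the same window alone among the members and in 1.15% of promoters. CCAAT was found in 12 of 15 matched sterol enzymes, 3 of 8 fatty acid genes and 3 of 4 regulators, and in 35.7% of all promoters. MSMO1 held 4 copies, SCD and ACLY 2 each, and PMVK none. GGGCGG, the GC box, was in 14 of 15, 7 of 8 and 4 of 4, beside 44.6% of all promoters. The E-box form TCANNTGA was in the windows of EBP and INSIG1 and in 7.62% of promoters. A match is a description of these letters and not of binding.

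Levels between genes were compared per kilobase of exon, leaving out LSS and ACACA, whose exon lengths span 2 contigs. SQLE was highest of 28 members in NT cells, at 101 ± 3.64 CPM per kilobase (SD, n = 2), followed by ACLY at 95.7 ± 4.34 and FDPS at 92.1 ± 6.99, neighbours that lay within about their spread. HSD17B7 was lowest, at 5.85 ± 1.16. In Doxo+Cyta+DAC ACLY came first, at 119 ± 14.9 (SD, n = 4), FDPS and FASN next at 92.0 ± 14.5 and 89.7 ± 19.3, and FDFT1, first in Doxo+Cyta at 106 ± 4.27, was in place 9 at 42.8 ± 7.93.

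Other genes of lipid handling were counted in 4 further lists. Of 12 tested genes that control SREBP release or share its promoters, 3 were called higher and 4 lower in Doxo+Cyta+DAC than in NT, beside 24.9% and 23.7% of all tested genes. INSIG2, the second INSIG protein, was at 39.1 and 41.2 CPM in NT, 37.7 to 55.3 in Doxo, 45.5 to 70.4 in Doxo+Cyta and 7.63 to 13.4 in Doxo+Cyta+DAC, a log2 fold change of -2.15 ± 0.23 against NT (edgeR adjusted p = 9.50e-06). Unlike INSIG1, it was low in all 4 libraries. Of 18 genes of sterol uptake, transport and storage, 5 were called higher and 5 lower against NT (24.9% and 23.7% of all tested genes), and 9 higher and 4 lower against Doxo (29.1% and 30.4%). VLDLR, a lipoprotein receptor, was at 6.35 to 11.5 CPM in the other groups and at 0.554 to 1.10 CPM in Doxo+Cyta+DAC (-3.13 ± 0.31 against NT). The related receptor LRP8 was higher than in both chemotherapy relapses, at 77.0 to 90.2 CPM against 24.6 to 49.6 in Doxo and 32.9 to 36.0 in Doxo+Cyta. ABCA1, which exports cholesterol, rose by 1.25 ± 0.34 (log2) against Doxo, at 19.1 to 61.5 CPM against 13.9 to 19.0. TMEM97, a sterol-responsive membrane protein, rose by 1.06 ± 0.12 against Doxo. NPC2, which hands cholesterol out of the lysosome, fell by 1.37 and OSBP, an oxysterol-binding protein, by 1.05 against Doxo. MYLIP, which degrades lipoprotein receptors, fell by 1.19 against NT.

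Of 21 tested genes of fatty acid activation, NADPH supply and glycerolipids, 6 were called higher and 8 lower in Doxo+Cyta+DAC than in NT, beside 24.9% and 23.7% of all tested genes. PLIN2, which coats lipid droplets, was at 134 to 195 CPM in Doxo+Cyta+DAC against 308 to 456 in Doxo and 316 to 361 in Doxo+Cyta. DGAT2, which makes triglycerides, was at up to 4.59 CPM against 6.40 to 8.59 in Doxo. Of 14 genes of fatty acid oxidation, 2 were called higher and 5 lower against NT (24.9% and 23.7% of all tested genes), and 1 higher and 8 lower against Doxo+Cyta (29.8% and 30.5%). PPARA, a transcription factor of fatty acid oxidation, was at 5.57 to 6.89 CPM in Doxo+Cyta+DAC and at 10.9 to 20.4 CPM in all other libraries, a log2 fold change of -1.66 ± 0.16 against NT.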

How the data were processed

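HEL cells of 4 groups were sequenced from TruSeq libraries (12 samples). The authors checked read quality with FastQC, filtered reads with fastx-toolkit and perl scripts, aligned pairs to GRCh38 with Bowtie2 2.2.8 and counted fragments per gene with featureCounts 1.6.0 without strand, dropping chimeric, multi-mapping and multi-overlapping fragments. The deposited counts are raw fragment counts. Bowtie2 does not split reads over exon junctions, so junction reads are under-counted. Of 26485 genes, 4 with a missing count were left out.

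Samples were grouped by their labels. The authors call the samples biological replicates. edgeR 4.0.16 (R 4.3.3) was run on all genes with filterByExpr, TMM scaling and 1 quasi-likelihood model over 12 samples, leaving 14164 genes, and p-values were adjusted by Benjamini-Hochberg. SE is the absolute log2 fold change divided by the root of F. CPM uses the TMM library sizes. The fit was tested on simulated counts. RLE scaling, other filters, only the compared groups, DESeq2 1.42.0 and leaving out each library were tried. The members and lists were chosen with earlier results of these data known. All 30 members are named, and other pathway genes are named where called with a fold over 2 and no overlap between groups. A further such gene is not reported here.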

Additional observations from a re-analysis of the deposited data

Results flagged for a closer look

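MSMO1 in Doxo+Cyta+DAC replicate 31 was at 68.4 CPM, and the other 3 libraries of the group were at 18.6 to 26.5 CPM. The gap to the nearest library was 0.8418 of the whole range of the group, above the 95% critical value of Dixon's test for 4 samples. The 30 members were tested in this way in the 1 group with 4 samples, and chance alone marks about 1 in 20 of them.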

How the results depend on the processing

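No paired analysis was possible because the groups share no replicate numbers. Members called lower in Doxo than in NT numbered 3, and 7 with no filter, 6 with only the groups compared and 5 with DESeq2, while those called higher went from 0 to 1 with only the groups compared. Members called lower in Doxo+Cyta than in NT went from 2 to 0 with only the groups compared. Members higher in Doxo+Cyta than in Doxo went from 0 to 1 with DESeq2. Leaving out each library in turn moved the lower calls from 0 to 6 for Doxo against NT, from 0 to 3 for Doxo+Cyta against NT, from 5 to 16 for Doxo+Cyta+DAC against NT, from 6 to 17 against Doxo and from 7 to 17 against Doxo+Cyta. The highest of each of the last 3 came without Doxo+Cyta+DAC replicate 31. The higher calls ran from 1 to 4 for Doxo+Cyta+DAC against NT and from 0 to 1 for Doxo+Cyta against Doxo. The sterol minus fatty acid median ran from -0.31 to 0.20 for Doxo+Cyta+DAC against NT and from -0.33 to -0.10 against Doxo+Cyta. Fits without an NT library leave 1 NT sample, assumed to vary like the other groups. No value of a called member changed sign under any alternative run. Of the member values recomputed with another filter, scaling, model or tool, 867 kept their side of the threshold, 27 passed it anew and 6 no longer did. How far the spread between the 2 to 4 libraries of a group limited what could be called was not tested. MSMO1 against Doxo had an SE of 0.38, and its difference of -0.72 missed the threshold. The causes were not tested.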
